A study of Vitis vinifera with 15 samples.

Results

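The genes described here carry a newGene number in place of an annotated gene identifier. From this form they are taken as newly assembled loci of the grape skin transcriptome, that is, transcribed loci added to the reference annotation. The study's methods do not describe their assembly. A gene was taken when its identifier had the newGene form and its mean over the 15 libraries was at least 10 FPKM, a fragment count scaled by exon length and by library size. The genes were thus chosen by their measured level, and that level is given below as a description. A total of 73 genes met this rule, out of 1997 newly assembled genes and 31924 genes in all. newGene_3216 was left out by the rule and lay below the threshold in any case, with a mean of 1.97 FPKM. In what follows a gene is written as newGene with its number, the full identifier being Vitis_vinifera_newGene_ followed by that number.

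The libraries came from berry skin of 5 table grape cultivars at the ripening stage, with 3 libraries per cultivar. The muscat aroma type was represented by 'Shine muscat', 'Midknight Beauty' and 'Centennial Seedless', the strawberry type by 'Summer Black' and the neutral type, which served as the control, by 'Victoria'. All vines stood in a single vineyard, so each cultivar was seen at 1 site, and the strawberry and neutral types were represented by 1 cultivar each. According to the study's methods a replicate pooled bunches from several vines. Another passage of the methods assigns the 3 libraries of a cultivar to 3 sampling times, whereas the study's results call them biological replicates. The labels, which give replicates at the ripening stage, were followed. They do not say whether the replicates came from separate vines, so the spread behind the p-values is that between these libraries. The skin label was not checked against marker genes, because the table gives identifiers without gene names.

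A newly assembled gene arises when reads align to the reference genome outside annotated genes, or across them in a structure that the annotation lacks, and an assembler joins these reads into a transcript. Such loci can be protein-coding genes that the annotation missed, long non-coding RNAs, extended ends of neighbouring genes or fragments of a longer transcript. The identifier alone does not say which of these a locus is, and no function is known from it. The table paired the identifiers with neither sequence nor position, and no sequence, coordinate or role is given for these genes here.

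Newly assembled genes were mostly weakly expressed, and the 73 genes were the upper end of that class. The median of the mean levels was 0.325 FPKM over all 1997 newly assembled genes and 1.77 FPKM over the 29927 annotated genes. Of the newly assembled genes, 1494 (74.8%) had a mean under 1 FPKM. Only 3.66% reached the mean of 10 FPKM, against 29.5% of the annotated genes. The median of the 73 genes was 20.3 FPKM, a value that the rule set in part. Within the set, 36 genes had a mean of 10 to 20 FPKM, 27 of 20 to 50 FPKM, 8 of 50 to 200 FPKM and 2 of over 200 FPKM.

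The threshold cut through a continuous run of levels. Just inside it lay newGene_1841 with a mean of 10.2 FPKM, newGene_2240 with 10.04 FPKM and newGene_1908 with 10.02 FPKM. Just outside it lay newGene_2689 with 9.95 FPKM, newGene_3003 with 9.80 FPKM and newGene_2645 with 9.56 FPKM. When the cultivar with the highest level was left out of the mean, 64 of the 73 genes still reached 10 FPKM and 9 did not. These 9 genes (newGene_2792, newGene_3748, newGene_3299, newGene_1366, newGene_2165, newGene_3078, newGene_1841, newGene_2240 and newGene_1908) had passed only through the cultivar in which they were highest, so a difference between cultivars was favoured by the choice itself.

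**Figure D1:**
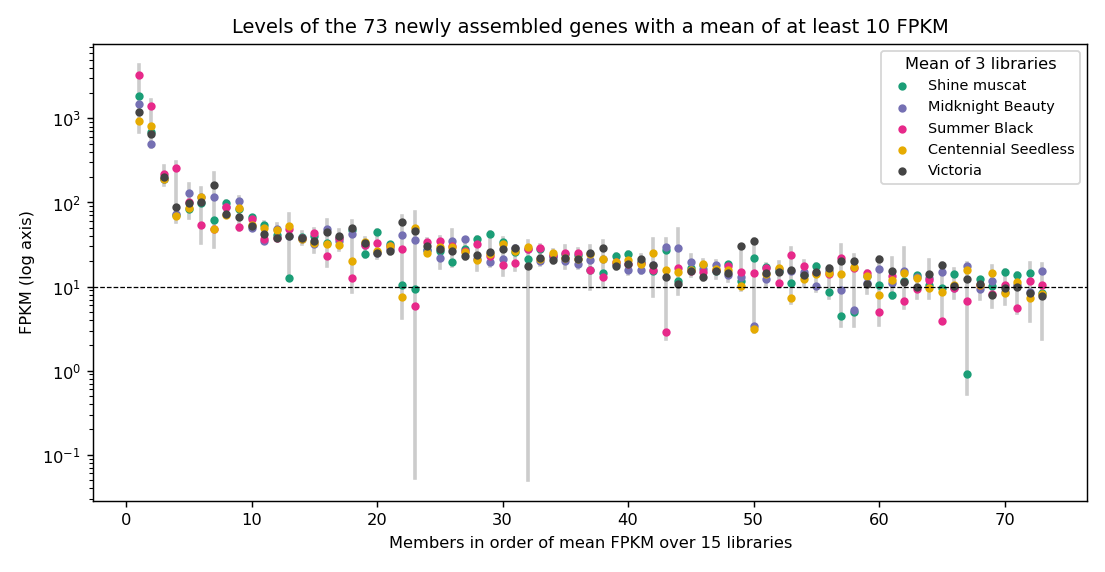
FPKM (log axis) of the 73 newly assembled genes, ordered along the horizontal axis by their mean over 15 libraries; coloured points are means of 3 libraries of a cultivar, grey lines run from the lowest to the highest library, and the dashed line marks 10 FPKM. A value of 0 has no place on a log axis, so the line of newGene_2370 ends at an arbitrary low point; 2 genes lie above 200 FPKM, and most cultivar means lie between 10 and 50 FPKM.

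The most abundant newly assembled gene was newGene_2674, with a mean of 1747 FPKM, which placed it at rank 29 of all genes in the table. It had 2139, 1577 and 1794 FPKM in 'Shine muscat', 1244, 1428 and 1772 FPKM in 'Midknight Beauty', 3025, 2496 and 4345 FPKM in 'Summer Black', 974, 701 and 1154 FPKM in 'Centennial Seedless' and 1315, 683 and 1562 FPKM in 'Victoria'. The 3 'Summer Black' libraries were the 3 highest of the 15, and the libraries of the other cultivars overlapped in part. The log2 difference of 'Summer Black' from 'Victoria' was 1.51 (SE 0.31, limma adjusted p = 0.00443), a change that passed the adjusted p of 0.01 but not the log2 fold change of 2 that the study's results set for a differentially expressed gene.

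The second was newGene_2270, with a mean of 803 FPKM and rank 78 of all genes. Its 'Summer Black' libraries had 1638, 1460 and 1075 FPKM, and its 'Victoria' libraries had 552, 621 and 767 FPKM. In 'Centennial Seedless' 1 library had 1308 FPKM and the other libraries 513 and 606 FPKM. 'Shine muscat' had 611, 711 and 719 FPKM, and 'Midknight Beauty' was lowest with 494, 458 and 518 FPKM. Over the 5 cultivars the limma F test gave an adjusted p of 0.00984 with a range of 1.48 between the highest and the lowest log2 mean.

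These 2 genes carried 36.1% to 71.1% of the FPKM of the whole set, depending on the library. The summed level of the 73 genes ran from 3258 to 7621 FPKM per library. Without newGene_2674 and newGene_2270 it ran only from 1973 to 2410 FPKM. The share of all FPKM that fell to the 73 genes was 0.616% ± 0.0217 in 'Shine muscat', 0.548% ± 0.0376 in 'Midknight Beauty', 0.908% ± 0.104 in 'Summer Black', 0.501% ± 0.0609 in 'Centennial Seedless' and 0.547% ± 0.0699 in 'Victoria' (SD, n = 3 each). Both newGene_2674 and newGene_2270 had their highest cultivar mean in 'Summer Black'. Since the unit is a share of each library, a smaller number of cells expressing a gene and less RNA per cell cannot be told apart.

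The other abundant members differed in how far they depended on the cultivar. newGene_1804, with a mean of 198 FPKM and rank 419, was nearly level, with cultivar means of 192 ± 10.1 FPKM in 'Shine muscat', 192 ± 28.1 FPKM in 'Midknight Beauty', 217 ± 51.1 FPKM in 'Summer Black', 191 ± 21.5 FPKM in 'Centennial Seedless' and 200.05 ± 21.6 FPKM in 'Victoria' (SD, n = 3 each). newGene_1097, with a mean of 112 FPKM, had 223, 250.3 and 300.2 FPKM in 'Summer Black' and 77.2, 101 and 86.5 FPKM in 'Victoria'. All 3 'Summer Black' libraries of this gene were more than 2 times as high as any of the other 12, which lay between 57.9 and 101 FPKM. newGene_184, with a mean of 100.1 FPKM, ran from 65.9 to 165 FPKM over the libraries without a difference between cultivars that passed the test (limma F test, adjusted p = 0.314).

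The remaining genes of the 10 most abundant were newGene_2679 (mean 97.8 FPKM), newGene_1067 (87.1 FPKM), newGene_2843 (83.5 FPKM), newGene_599 (78.5 FPKM) and newGene_3540 (57.5 FPKM). newGene_2843 showed a small but regular difference. It had 105, 94.5 and 93.8 FPKM in 'Shine muscat' against 76.9, 69.0 and 71.9 FPKM in 'Victoria', and its range over the 5 cultivars was 0.47 on the log2 scale (limma F test, adjusted p = 0.00272). newGene_2679 was lowest in 'Summer Black', with 72.2, 59.0 and 32.7 FPKM, against 99.0, 101 and 106 FPKM in 'Victoria'. Its F test missed the threshold narrowly (adjusted p = 0.0118).

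Presence or absence by cultivar was examined next. A gene was counted as present in a cultivar when all 3 libraries reached 1 FPKM, and as low when all 3 were under 1 FPKM. By this measure 70 of the 73 genes were present in all 5 cultivars, and none was present in one cultivar and low in another. Among the annotated genes with a mean of at least 10 FPKM, 62 of 8831 (0.702%) were present in some cultivars and low in others. Among the other newly assembled genes that passed the filter on low values, 302 of 672 (44.9%) were, but these genes lay much lower in level, nearer to the limit of 1 FPKM. A mean taken over all 15 libraries favours genes expressed in several cultivars, so the count of 0 is in part set by the rule.

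The 3 genes that were not present in every cultivar each had a library under 1 FPKM. The first was newGene_1366, with 0.534, 1.2 and 1.02 FPKM in 'Shine muscat' against 10.6, 11.5 and 14.6 FPKM in 'Victoria'. All 3 'Shine muscat' libraries stood near the limit, and the other 12 libraries had 5.30 FPKM or more. The second was newGene_3070, with 14.7, 2.96 and 0.0535 FPKM in 'Summer Black' against 53.7, 37.2 and 44.7 FPKM in 'Victoria'. Here the 3 libraries of the cultivar spread over more than 2 orders of magnitude. The third was newGene_2370, with 20.3 to 34.8 FPKM in the 12 libraries of the aromatic cultivars, against 24.3, 28.6 and a listed 0 FPKM in 'Victoria'. A 0 in a table without counts can be a failed estimate. The values of newGene_1366 and newGene_3070 under 1 FPKM fell in 'Shine muscat' replicate 1 and 'Summer Black' replicate 3. For these 2 libraries the study listed the lowest shares of mapped reads, and whether that bears on the values was not tested.

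**Figure D2:**
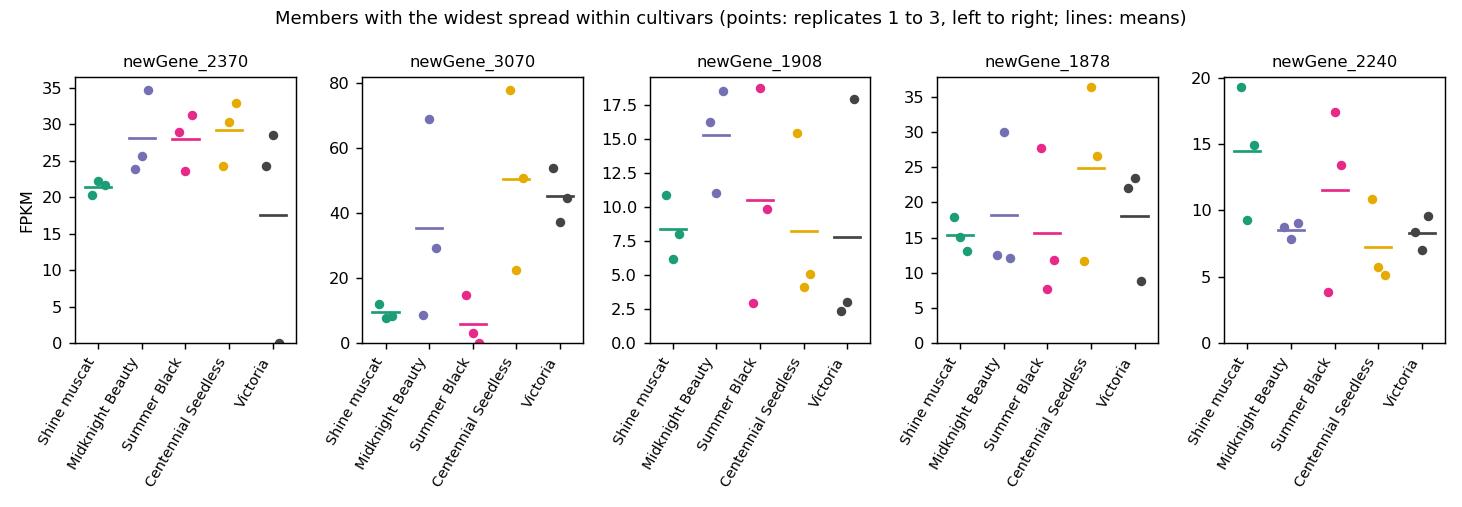
FPKM (vertical axis, starting at 0, scaled per gene) in each library of the 5 newly assembled genes with the widest spread between libraries of the same cultivar; points are replicates 1 to 3 from left to right and lines are cultivar means. In newGene_2370 all libraries lie between 20.3 and 34.8 FPKM except the 'Victoria' library listed at 0, and in newGene_3070 the 'Summer Black' libraries have 14.7, 2.96 and 0.0535 FPKM.

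Other genes, chosen after their values were seen, also varied strongly within cultivars. newGene_3070 had 77.9, 22.5 and 50.6 FPKM in 'Centennial Seedless', 8.45, 68.7 and 29.1 FPKM in 'Midknight Beauty' and 12, 7.71 and 8.42 FPKM in 'Shine muscat'. Its SD between libraries of the same cultivar was 1.17 on the log2 scale, against a median of 0.20 over the 73 genes. With that spread, its log2 difference of -3.50 between 'Summer Black' and 'Victoria' had a limma adjusted p of 0.0114 and was not a call. newGene_1908 had 2.96, 18.7 and 9.86 FPKM in 'Summer Black' and 2.38, 3 and 17.9 FPKM in 'Victoria'. newGene_1878 ran from 7.63 to 27.7 FPKM within 'Summer Black' and from 11.7 to 36.4 FPKM within 'Centennial Seedless'. Neither gene passed the F test (adjusted p of 0.495 for newGene_1908 and 0.783 for newGene_1878).

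The question of cultivar dependence was addressed by an F test over the 5 cultivars on log2(FPKM + 1), with p-values adjusted over the 18238 genes that had at least 1 FPKM in at least 3 libraries. All 73 genes passed this filter. A gene was called when the range of its 5 cultivar means was at least 2 on the log2 scale and its adjusted p was at most 0.01. By this rule 5 of the 73 genes were called (6.85%), against 7.81% of all genes tested, 5.87% of the annotated genes with a mean of at least 10 FPKM and 13.7% of the other newly assembled genes tested. At any range, the adjusted p was 0.01 or less in 25 of the 73 genes (34.2%), against 25.5% of all genes tested, 22.7% of the annotated genes with a mean of at least 10 FPKM and 44% of the other newly assembled genes tested. Among these 25 were newGene_1366, newGene_2792, newGene_3748 and newGene_1841, which had passed the mean of 10 FPKM only through their highest cultivar. newGene_1366 was also among the 5 called. The share of members thus lay near the background at the stricter rule, and above that of the annotated genes of this level and below that of the other new genes at any range; these shares were not tested against each other.

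The size of the difference likewise lay above that of the annotated genes of this level and below that of the other new genes. The median range of the cultivar means was 0.72 on the log2 scale over the 73 genes, 0.61 over the annotated genes with a mean of at least 10 FPKM and 1.07 over the other newly assembled genes tested. The range was at least 1 in 26 of the 73 genes (35.6%), against 35.3% of all genes tested and 26.4% of the annotated genes at this level. The median SD between libraries of the same cultivar was 0.205 for the 73 genes and 0.226 for those annotated genes. The highest cultivar mean fell in 'Shine muscat' for 20 genes (27.4%, against 33.9% of the annotated genes with a mean of at least 10 FPKM), in 'Midknight Beauty' for 15 (20.5%, against 18%), in 'Summer Black' for 14 (19.2%, against 25.1%), in 'Centennial Seedless' for 9 (12.3%, against 14.0%) and in 'Victoria' for 15 (20.5%, against 8.92%). Among the other newly assembled genes tested, 'Victoria' held the highest mean in 19.2%. These counts and the median range include the 9 genes that had passed the mean of 10 FPKM only through their highest cultivar. That cultivar was 'Victoria' for newGene_2792 and newGene_3748. Of the 9, newGene_1366, newGene_2792, newGene_3748, newGene_1841 and newGene_1908 had a range of at least 1. The part of these genes in the ranges and in the tally was favoured by the choice.

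**Figure D3:**
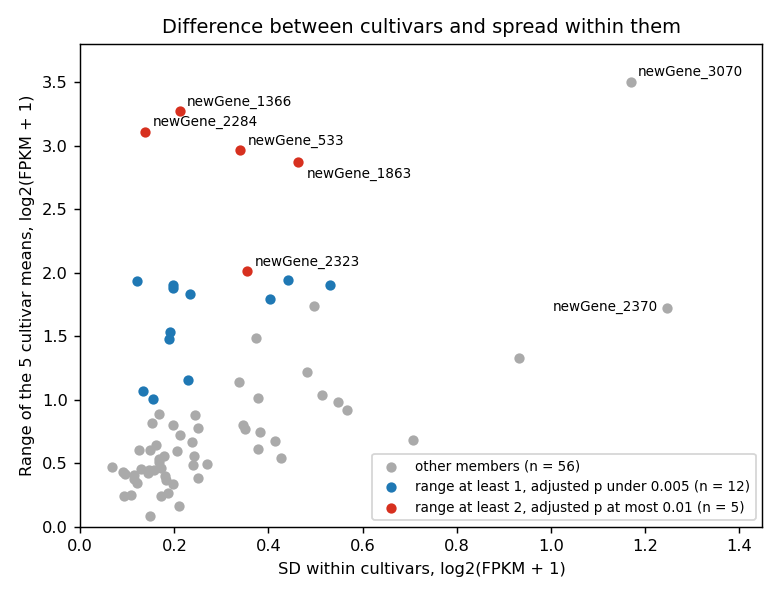
Range of the 5 cultivar means (vertical axis, log2(FPKM + 1)) against the SD between libraries of the same cultivar (horizontal axis, same scale) for the 73 newly assembled genes; red points are the 5 called genes, blue points the 12 further genes past the lower thresholds (range 1, adjusted p under 0.005), and grey points the rest. newGene_3070 has the largest range, 3.50, and an SD of 1.17; the 5 called genes combine a range above 2 with an SD under 0.5.

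The called gene with the smallest adjusted p was newGene_2284. It had 23.3, 21.8 and 19.7 FPKM in 'Shine muscat', 2.86, 3.58 and 3.66 FPKM in 'Midknight Beauty', 12.4, 14.1 and 17 FPKM in 'Summer Black', 2.91, 3.32 and 3.20 FPKM in 'Centennial Seedless' and 37.0, 32.9 and 34.5 FPKM in 'Victoria'. The libraries formed 4 separate levels, with 'Victoria' at the top, then 'Shine muscat', then 'Summer Black', and 'Midknight Beauty' and 'Centennial Seedless' together at the bottom. The range was 3.11 on the log2 scale (limma F test, adjusted p = 7.19e-09). Of the 3 muscat cultivars, 'Shine muscat' thus differed from both others, by log2 fold changes of 2.37 over 'Midknight Beauty' and 2.45 over 'Centennial Seedless' (SE 0.14 each, limma adjusted p of 9.75e-08 and 9.16e-08).

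The next was newGene_1366, which was low in 'Shine muscat' as described above. It had 14.9, 18.2 and 19.1 FPKM in 'Midknight Beauty', 7.83, 6.85 and 5.30 FPKM in 'Summer Black' and 17, 14.9 and 15.7 FPKM in 'Centennial Seedless'. Against each of the other cultivars 'Shine muscat' was lower without overlap, by log2 fold changes of -3.27 against 'Midknight Beauty', -2.0 against 'Summer Black', -3.16 against 'Centennial Seedless' and -2.79 against 'Victoria' (SE 0.18 each, limma adjusted p of 6.03e-06 or less). It was the only one of the 73 genes called in the same direction between 1 cultivar and each of the other 4 (1.37%), against 1.37% of all genes tested in any cultivar and 0.0932% lower in 'Shine muscat'. The difference from 'Summer Black' stood at the threshold itself, and without 'Shine muscat' replicate 1, 'Summer Black' replicate 1 or 'Summer Black' replicate 2 the count of such genes was 0. The gene is 1 of the 9 that the highest cultivar had carried over the mean of 10 FPKM.

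newGene_533 was the called gene that was lowest in 'Summer Black', the strawberry type. It had 33.7, 21.7 and 25.9 FPKM in 'Shine muscat', 37.3, 22.4 and 29.8 FPKM in 'Midknight Beauty', 2.36, 3.49 and 2.84 FPKM in 'Summer Black', 21.4, 15.8 and 10.1 FPKM in 'Centennial Seedless' and 11, 12.7 and 15.6 FPKM in 'Victoria'. Every 'Summer Black' library lay below every other library. The log2 fold change of 'Shine muscat' over 'Summer Black' was 2.84 and that of 'Midknight Beauty' over 'Summer Black' was 2.97 (SE 0.26 each, limma adjusted p of 6.07e-06 and 5.47e-06). Between 'Summer Black' and 'Centennial Seedless' it was -2.06 (SE 0.26, limma adjusted p = 0.00012), a call that did not hold after quantile normalization, without 'Summer Black' replicate 1 or without 'Centennial Seedless' replicate 1. Between 'Summer Black' and 'Victoria' it was -1.85 (SE 0.26, limma adjusted p = 0.000309), which missed the fold threshold.

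newGene_1863 was higher in 'Midknight Beauty' than in both other muscat cultivars. It had 43.6, 35.2 and 45.7 FPKM in 'Midknight Beauty', against 14.5, 5.05 and 12.1 FPKM in 'Shine muscat' and 11.7, 6.86 and 4.28 FPKM in 'Centennial Seedless', which overlapped. 'Summer Black' had 23.4, 33.4 and 27.9 FPKM, and 'Victoria' was highest with 51.0, 56.5 and 68.5 FPKM. The log2 fold change of 'Midknight Beauty' over 'Centennial Seedless' was 2.39 (SE 0.34, limma adjusted p = 0.000599), and over the 5 cultivars the F test gave an adjusted p of 7.56e-05. The difference between 'Midknight Beauty' and 'Shine muscat' was not a call.

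The last called gene, newGene_2323, had 5.11, 4.96 and 3.44 FPKM in 'Shine muscat', 7.5, 8.47 and 11.5 FPKM in 'Midknight Beauty', 17.8, 16.6 and 30.8 FPKM in 'Summer Black', 13.6, 12.2 and 16.2 FPKM in 'Centennial Seedless' and 13.9, 18.9 and 27.8 FPKM in 'Victoria'. 'Shine muscat' lay below all other libraries, while the 'Victoria' libraries overlapped those of both 'Summer Black' and 'Centennial Seedless'. The range of 2.01 was that between 'Summer Black' and 'Shine muscat' ('Shine muscat' minus 'Summer Black' -2.01, SE 0.27, limma adjusted p = 0.000133). Without 'Shine muscat' replicate 3 or 'Summer Black' replicate 3 this call was lost.

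**Figure D4:**
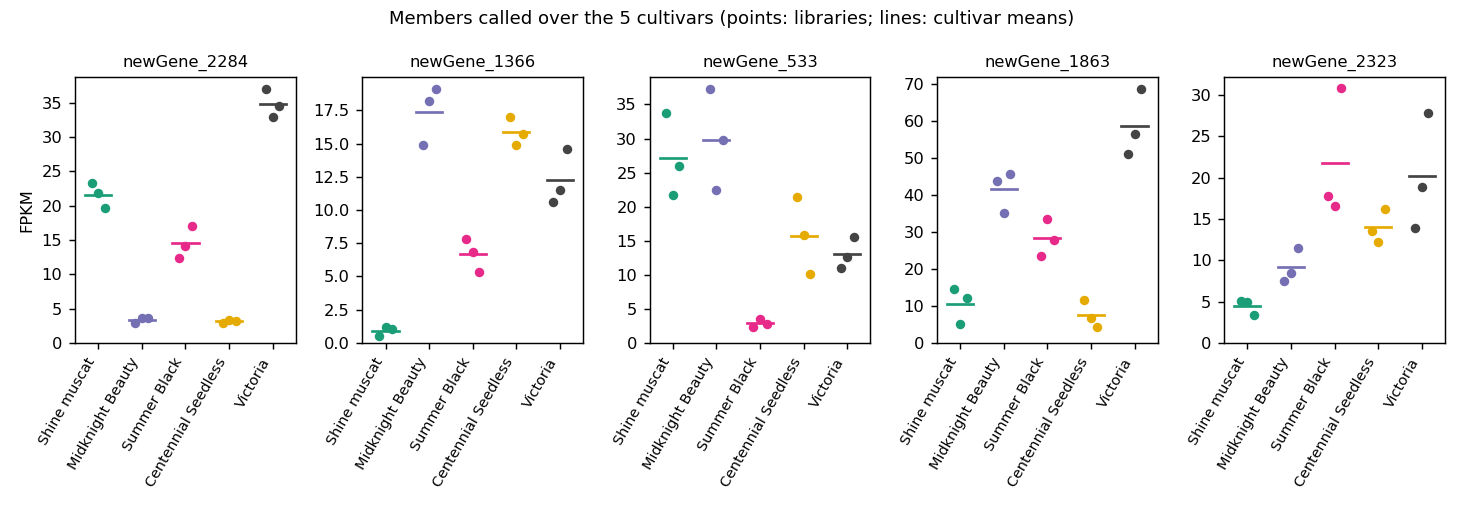
FPKM (vertical axis, starting at 0, scaled per gene) in each library of the 5 newly assembled genes called over the 5 cultivars; points are the 3 libraries of a cultivar and lines are cultivar means. newGene_1366 lies at 0.534 to 1.2 FPKM in 'Shine muscat', newGene_533 at 2.36 to 3.49 FPKM in 'Summer Black', and newGene_2284 at 2.86 to 3.66 FPKM in 'Midknight Beauty' and 2.91 to 3.32 FPKM in 'Centennial Seedless'.

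At the lower thresholds that the study's methods give (1 on the log2 scale, adjusted p under 0.005), 17 of the 73 genes passed the F test (23.3%), against 17.4% of all genes tested, 12.8% of the annotated genes with a mean of at least 10 FPKM and 37.6% of the other newly assembled genes tested. The 17 genes included newGene_1366, newGene_2792, newGene_3748 and newGene_1841. These had passed the mean of 10 FPKM only through their highest cultivar, so their part in this share was favoured by the choice. The 12 genes added at these thresholds were described after their values had been seen. Of these, newGene_1097, newGene_2674 and newGene_2944 were highest in 'Summer Black'. newGene_2944 had 28.9, 18.8 and 22.8 FPKM in 'Summer Black', 8.71, 7.03 and 6.38 FPKM in 'Centennial Seedless' and 14.5, 16.9 and 15.5 FPKM in 'Victoria'. Its call was that of 'Summer Black' over 'Centennial Seedless' (log2 fold change 1.54, SE 0.16, limma adjusted p = 3.11e-05).

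5 of the 12 were lowest in 'Summer Black'. newGene_3748 had 4.15, 3.67 and 3.99 FPKM there, against 16.8, 18.9 and 18 FPKM in 'Victoria'. newGene_2792 had 5.43, 6.22 and 3.48 FPKM in 'Summer Black', against 21.4, 22.3 and 19.8 FPKM in 'Victoria'. In both genes the cultivar means followed the same order, with 'Victoria' first, 'Midknight Beauty' second, then 'Shine muscat', 'Centennial Seedless' and 'Summer Black', and both had passed the mean of 10 FPKM only with the help of 'Victoria'. The others were newGene_348, with 10.9, 16.8 and 10.2 FPKM in 'Summer Black' against 53.7, 59.5 and 36.7 FPKM in 'Victoria', newGene_599 and newGene_1841. The call of newGene_599 was that of 'Midknight Beauty', with 93.4, 115 and 102 FPKM, over 'Summer Black', with 47.0, 57.3 and 48.8 FPKM (log2 fold change 1.01, SE 0.13, limma adjusted p = 0.000162). The call of newGene_1841, which had reached the mean of 10 FPKM only with the help of 'Shine muscat', was that of 'Shine muscat', with 14.4, 14.2 and 12.4 FPKM, over 'Summer Black', with 4.91, 6.26 and 5.65 FPKM (log2 fold change 1.15, SE 0.19, limma adjusted p = 0.000671).

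The remaining 4 stood apart in other cultivars. newGene_991 was lower in 'Shine muscat', with 12.4, 13.7 and 11.9 FPKM, than in the other cultivars, whose 12 libraries had 25.0 to 72.4 FPKM. newGene_852 was higher in 'Shine muscat', with 44.2, 41.4 and 40.2 FPKM, against 17.5 to 27.6 FPKM in the other 12 libraries. newGene_1445 was low in both 'Shine muscat', with 6.04, 5.44 and 3.41 FPKM, and 'Midknight Beauty', with 5.23, 5.18 and 5.38 FPKM, but not in the third muscat cultivar, 'Centennial Seedless', with 14.2, 19.6 and 17 FPKM, or in 'Victoria', with 21.1, 23.5 and 15.7 FPKM. newGene_2087 was highest in 'Victoria', with 9.06 to 19.1 FPKM in the 12 libraries of the aromatic cultivars against 29.3 to 31.0 FPKM in 'Victoria'.

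**Figure D5:**
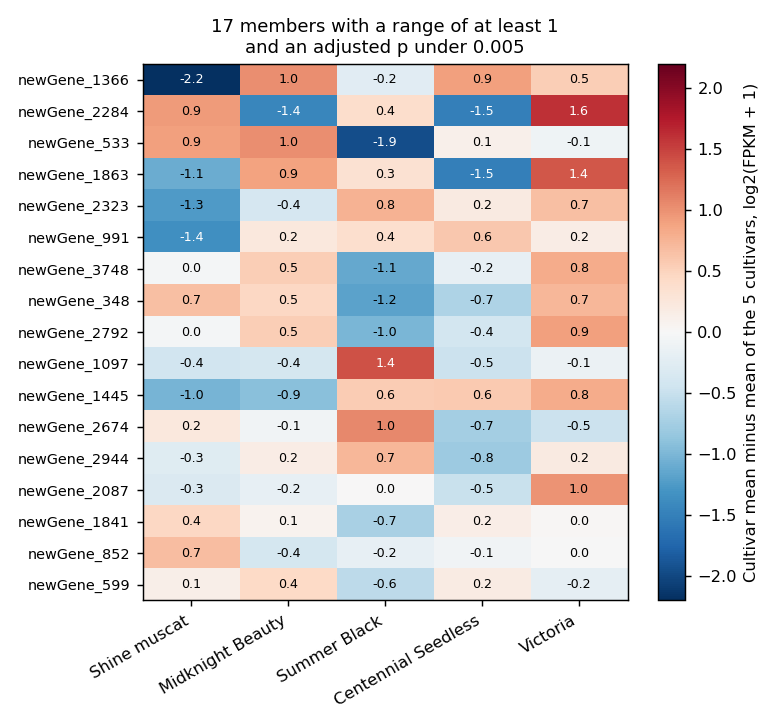
Cultivar mean minus the mean of the 5 cultivars, on the log2(FPKM + 1) scale (red higher, blue lower, value printed in each cell), for the 17 newly assembled genes past the lower thresholds (range 1, adjusted p under 0.005), ordered by range. The largest deviations are those of newGene_1366 in 'Shine muscat' and newGene_533 in 'Summer Black', and the 17 genes do not share a single cultivar pattern.

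Each aromatic cultivar was then compared with 'Victoria'. The 4 comparisons share the same 3 'Victoria' libraries and are given side by side. With limma, calls at a 2-unit log2 difference and the adjusted p limit of 0.01 numbered 2 of the 73 genes in 'Shine muscat' (2.43% of all genes tested were called), 1 in 'Midknight Beauty' (1.06%), 0 in 'Summer Black' (2.45%) and 2 in 'Centennial Seedless' (1.22%). In 'Summer Black' 10 genes were higher and 18 lower at an unadjusted p under 0.05 (14.1% and 18.5% of all genes tested). There a pseudocount of 0.1 in place of 1 gave 3 calls, and the share over all genes at that setting was not computed. All 5 calls were lower in the aromatic cultivar than in 'Victoria', a direction in which 1.17%, 0.554%, 1.39% and 0.707% of all genes tested were called in the same order of cultivars. Called higher were 1.26%, 0.504%, 1.05% and 0.515% of all genes tested. The 5 calls came from newGene_1366, newGene_1863 and newGene_2284 only, the latter 2 called in 2 cultivars each. The median log2 fold change of the 73 genes was 0.08 in 'Shine muscat', -0.07 in 'Midknight Beauty', 0.01 in 'Summer Black' and -0.01 in 'Centennial Seedless', against 0.10, -0.01, -0.02 and 0.01 over all genes tested.

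In 'Shine muscat' the called genes were newGene_1366, at a log2 difference from 'Victoria' of -2.79 (SE 0.18, limma adjusted p = 3.37e-07), and newGene_1863, with 14.5, 5.05 and 12.1 FPKM against 51.0, 56.5 and 68.5 FPKM in 'Victoria', at -2.47 (SE 0.34, limma adjusted p = 0.000242). newGene_1863 was called in 'Centennial Seedless' as well, at -2.87 (SE 0.34, limma adjusted p = 0.000119). newGene_2284 was called in 'Midknight Beauty', at -3.04 (SE 0.14, limma adjusted p = 2.72e-08), and in 'Centennial Seedless', at -3.11 (SE 0.14, limma adjusted p = 2.53e-08). In each of these the libraries of the pair of cultivars did not overlap.

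At an adjusted p of at most 0.01 and any fold change, 3 genes were higher and 10 lower in 'Shine muscat' than in 'Victoria' (7.2% and 4.02% of all genes tested). In 'Midknight Beauty' 0 were higher and 3 lower (1.81% and 1.97%), in 'Summer Black' 2 were higher and 8 lower (3.98% and 5.82%), and in 'Centennial Seedless' 0 were higher and 6 lower (2.12% and 2.39%). At an unadjusted p under 0.05 the counts higher and lower were 20 and 16 in 'Shine muscat', 8 and 8 in 'Midknight Beauty', 10 and 18 in 'Summer Black' and 7 and 11 in 'Centennial Seedless'. The backgrounds of these counts were 22% and 11.8%, 10% and 10.6%, 14.1% and 18.5%, and 9.97% and 9.05% in that order of cultivars. At the lower thresholds 0 were higher and 5 lower in 'Shine muscat' (4.1% and 2.65%), 0 and 3 in 'Midknight Beauty' (1.28% and 1.38%), 2 and 5 in 'Summer Black' (2.38% and 3.72%) and 0 and 4 in 'Centennial Seedless' (1.48% and 1.79%). At each of these limits the genes lower in 'Summer Black' included newGene_2792 and newGene_3748. Those lower in 'Centennial Seedless' included newGene_2792. At an adjusted p of at most 0.01 and at an unadjusted p under 0.05, those lower in 'Shine muscat' included both genes. In 'Centennial Seedless' they included newGene_3748 as well at these 2 limits. Both genes had passed the mean of 10 FPKM only through 'Victoria', so a level lower than in 'Victoria' was favoured by the choice. Scaling by median ratios lowered the median of all genes in 'Shine muscat' by 0.12 on the log2 scale, so small differences in that comparison depend on the scaling.

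In 'Summer Black', where no gene met the call, newGene_3070 was past the fold limit but not the limit on the adjusted p, as given above. It became a call without 'Midknight Beauty' replicate 1, 'Midknight Beauty' replicate 2 or 'Summer Black' replicate 1. The genes past the limit on the adjusted p with the largest differences were newGene_3748, at -1.94 (SE 0.13, limma adjusted p = 5.62e-07), newGene_2792, at -1.90 (SE 0.17, limma adjusted p = 7.29e-06), newGene_348, at -1.90 (SE 0.39, limma adjusted p = 0.00439), and newGene_533. Of these, newGene_3748 and newGene_2792 had been chosen through their level in 'Victoria' itself. The genes higher in 'Summer Black' at the lower fold threshold were newGene_1097, at 1.54 (SE 0.16, limma adjusted p = 2.69e-05), and newGene_2674. With a pseudocount of 0.1, newGene_2792 (-2.09), newGene_3748 (-2.16) and newGene_533 (-2.14) were calls, and newGene_348 (-1.98) was not. newGene_1067 had 76.7, 29.5 and 39.1 FPKM in 'Summer Black' against 96.1, 161 and 222 FPKM in 'Victoria', a log2 difference of -1.74 (SE 0.36, limma adjusted p = 0.00502).

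Several members were steady across the cultivars. newGene_1839 had the smallest range, 0.08 on the log2 scale, with cultivar means of 38.6 ± 2.85 FPKM in 'Shine muscat', 36.5 ± 3.84 FPKM in 'Midknight Beauty', 37.7 ± 6.41 FPKM in 'Summer Black', 36.6 ± 2.96 FPKM in 'Centennial Seedless' and 37.7 ± 2.50 FPKM in 'Victoria' (SD, n = 3 each). The next were newGene_1804 (range 0.16), newGene_2802 (0.24), newGene_716 (0.24) and newGene_230 (0.25). newGene_2802 had 24.6 to 32.7 FPKM over all 15 libraries and newGene_230 had 18.8 to 27.4 FPKM. A p above the threshold does not show that these levels were equal.

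Members with neighbouring numbers were compared because a long transcript can be split into several assembled pieces; what the numbers stand for is not given in the sources used here. newGene_3256 and newGene_3257 were close to each other in level, with means of 21.9 and 22.6 FPKM and with 16.6 FPKM each as their lowest library, 'Centennial Seedless' replicate 1. newGene_1366 and newGene_1367 were not alike, since newGene_1367 had 14.7, 8.82 and 11.7 FPKM in 'Shine muscat', where newGene_1366 had 0.534, 1.2 and 1.02 FPKM. newGene_2674 was highest and newGene_2679 lowest in 'Summer Black'. These pairs were picked after their values were seen and are given as descriptions only. They were taken from 17 pairs of members whose numbers differed by 10 or less. Over those 17 pairs the correlation across the 15 libraries, which fall into 5 cultivars, ran from -0.74 to 0.83 with a median of 0.0095, against a median of 0.019 over all 2628 pairs of members.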

How the data were processed

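Skin RNA of 5 grape cultivars, 3 libraries each, was sequenced, and the authors deposited a table of FPKM values per gene, in which newly assembled genes stand beside annotated ones. The authors' methods name Bowtie2 and RSEM on the PN40024 12X genome, whereas the submitters' processing notes name HISAT2 and StringTie; which of them made the table, and how the new genes were filtered, could not be settled. The labels call the 3 libraries of a cultivar replicates at the ripening stage, whereas a methods passage assigns the same numbers to 3 sampling times; the labels were followed. The summed FPKM per library was 718652 to 786207, with 9440 to 10976 genes at 0. The values showed no whole-read steps, so the read count behind each value is unknown and no counting interval is given. The study listed the lowest share of mapped reads for 'Shine muscat' replicate 1 and the next lowest for 'Summer Black' replicate 3. The lowest values of newGene_1366 and newGene_3070 and the highest value of newGene_2674 fell in these libraries. Whether the share of mapped reads bears on these values was not tested.

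Values were tested as log2(FPKM + 1) with limma 3.58.1 in R 4.3.3 (linear model over 15 libraries, moderated variance with a trend), after a filter of at least 1 FPKM in at least 3 libraries, with Benjamini-Hochberg adjustment over 18238 genes; fold changes on this scale understate those of low genes. Calls needed a log2 difference of 2 and an adjusted p of 0.01. The script was tested on simulated data. The study's test was a count model, which FPKM do not allow. Named genes were the 10 with the highest mean, those present in some cultivars and low in others, up to 3 called without overlap per direction in each comparison with 'Victoria', up to 3 set apart per cultivar, the 5 with the smallest range, and 3 on either side of the mean of 10 FPKM; others are marked as chosen after seeing their values. Alternatives changed the pseudocount, filter, scaling, thresholds, variance model, libraries and presence limit. Members and lists were chosen with earlier results of these data known.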

Additional observations from a re-analysis of the deposited data

How the results depend on the processing

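The 5 calls against 'Victoria' were kept in all 23 alternatives that changed the fit or left out a library. A pseudocount of 0.1 gave 9 genes called over the 5 cultivars and 2 set apart. Against 'Victoria' it gave 4 in 'Shine muscat' and 3 in 'Summer Black'. The shares over all genes at that pseudocount were not computed. The counts at that pseudocount therefore cannot be read as particular to the newly assembled genes. The lower thresholds gave 17 over the 5 cultivars, 5 in 'Shine muscat', 3 in 'Midknight Beauty', 7 in 'Summer Black', 4 in 'Centennial Seedless' and 3 set apart. With a presence limit of 2 FPKM, 1 gene (newGene_1366, low in 'Shine muscat') was present in some cultivars and low in others. The shares over all genes were not computed for this presence count or for the 3 set apart, so neither count can be judged. The lower thresholds and the presence limit changed counts by construction; for the pseudocount the cause was not tested.

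Leaving out 1 library at a time gave 4 to 8 genes over the 5 cultivars (8 without 'Summer Black' replicate 2), 2 to 3 in 'Shine muscat', 1 in 'Midknight Beauty', 0 to 2 in 'Summer Black', 2 in 'Centennial Seedless', 0 to 1 set apart, 70 to 71 present in all cultivars and 0 present in some and low in others. The added calls in 'Summer Black' were newGene_3070 without 'Midknight Beauty' replicate 1 or 2 or 'Summer Black' replicate 1, newGene_1067 without 'Summer Black' replicate 1 or 'Victoria' replicate 1, newGene_348 without 'Summer Black' replicate 2 or 'Victoria' replicate 3, and newGene_2792 without 'Summer Black' replicate 2. newGene_2323 became a call in 'Shine muscat' without 'Victoria' replicate 1 and under both other scalings. After quantile normalization newGene_533 was no longer a call between 'Summer Black' and 'Centennial Seedless'. The shares over all genes with a library left out or under the other scalings were not computed.

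Deviations of same-numbered libraries correlated at -0.35 to 0.60 over 30 pairs of libraries, 13 of them over 0.1 and 15 highest with their own number. In the comparisons with 'Victoria', 5 of 12 were over 0.1 and in none of them all 3, so the numbers were not taken to pair the samples there. Between 'Midknight Beauty' and 'Centennial Seedless' all 3 were (0.59, 0.60 and 0.22); under the replicate block the call of newGene_1863 between these cultivars held (limma adjusted p = 0.00133). With the replicate number as a block the counts were 5 over the 5 cultivars, 2, 1, 0 and 2 against 'Victoria' in 'Shine muscat', 'Midknight Beauty', 'Summer Black' and 'Centennial Seedless', and 1 set apart.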
